A study of Mus musculus with 45 samples.

Results

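The step between 1 and 3 µg/kg TCDD was examined in 10 of the 45 livers of a dose-response RNA-Seq study, 5 from mice given 1 µg/kg and 5 from mice given 3 µg/kg, chosen by the dose in the sample labels. The livers came from female C57BL/6 mice gavaged every 4 days for 28 days with TCDD (2,3,7,8-tetrachlorodibenzo-p-dioxin) in sesame oil, and the 2 groups were compared directly with each other. The other groups, given sesame oil alone (the vehicle), 4 lower doses from 0.01 to 0.3 µg/kg or 10 and 30 µg/kg TCDD, also held 5 livers each, entered the fit and served as reference points. The labels describe all the mice, controls included, as ovariectomized and the gavage as both daily and every 4 days, whereas the study's methods mention neither ovariectomy nor daily dosing, so these points could not be settled. Each liver came from a separate mouse, and p-values measure the spread between these mice.

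The values were raw read counts per gene, and CPM below are each gene's reads relative to a common library total after TMM scaling, which corrects for the composition of each library. Reads counted on genes ranged from 13367961 to 34079983 in the livers at 1 µg/kg, with a median of 15573445. They ranged from 13174364 to 47459314 at 3 µg/kg, with a median of 28119761, so the ranges overlapped and the median was higher at 3 µg/kg. Mitochondrially encoded genes took 5.48 to 6.36% of the reads at 1 µg/kg and 5.49 to 7.49% at 3 µg/kg. *Alb*, the albumin gene that marks hepatocytes, had 102681 ± 8769 CPM at 1 µg/kg and 99508 ± 8801 CPM at 3 µg/kg (SD, n = 5). The labels used here name no sequencing pool for each liver, and the part of pools in the differences was not tested.

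TCDD binds the aryl hydrocarbon receptor (AhR), a ligand-activated transcription factor that joins its partner ARNT in the nucleus and binds DNA elements holding the core GCGTG. Its best known targets in liver are the P450 enzymes of the *Cyp1* family and other enzymes of xenobiotic metabolism, and it also induces its own inhibitors, the AhR repressor *Ahrr* and the ADP-ribosyltransferase *Tiparp*. Sustained activation in mice is known for fat accumulation, inflammation and loss of hepatocyte functions.

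Few genes differed at the step when each was tested alone. In edgeR's quasi-likelihood test with Benjamini-Hochberg adjustment over all 17464 genes tested, 27 genes (0.155%) were higher at 3 than at 1 µg/kg and 4 (0.0229%) were lower, 31 in all (0.178%). With a fold change of at least 2 in addition, the counts were 17 higher (0.0973%) and 2 lower (0.0115%). At an unadjusted p under 0.05 there were 1242 genes, 703 higher and 539 lower. In 187 genes (1.07%) every liver at 3 µg/kg was above every liver at 1 µg/kg, and in 113 (0.647%) every liver was below. Of the 31 called genes, 28 were separated in this way, and the exact two-sided permutation test of 5 against 5 livers then gave 0.007937, the smallest p that the 252 divisions of the livers allow. A total of 8 genes, among them *Ovol1*, *Tiparp*, *Serpinb6a*, *Mfge8*, *Pkp1*, *Dpf3* and *Sox17*, remained called in each of the 10 fits that left out 1 liver, and 14 of the 31 were called in fewer than 5 of those fits.

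Against the vehicle, 307 genes (1.76%) were called at 1 µg/kg and 1316 (7.54%) at 3 µg/kg. Both doses called 276 genes. Of the 1040 genes called at 3 and not at 1 µg/kg, 14 were called in the direct comparison of the doses. The step was therefore read from that direct comparison, and a gene that crossed the threshold between the doses was not counted as changed unless the comparison called it.

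The feedback inhibitors of the receptor and *Cyp1b1* rose at the step. *Tiparp* (ENSMUSG00000034640, chr3:65528410-65555518, GRCm38), which modifies AhR by mono-ADP-ribosylation and limits its activity, had 16.3, 23.2, 14.9, 12.7 and 14.1 CPM in the 5 livers at 1 µg/kg and 34.2, 35.2, 63.1, 43.1 and 42.9 CPM at 3 µg/kg. Every liver at the higher dose was above every liver at the lower one. The log2 fold change was 1.42 ± 0.17 (SE, n = 5 livers per group), or 2.68-fold, with an adjusted p of 1.75e-06 from edgeR. The mean was 13.7 CPM in the vehicle livers and 12.7 CPM at 0.3 µg/kg. *Tiparp* at 1 µg/kg (16.2 ± 4.1 CPM, SD, n = 5) was not called against the vehicle (adjusted p = 0.556), while it was at 3 µg/kg (adjusted p = 1.63e-09). It was called again from 3 to 10 µg/kg, where it had 92.6 CPM (adjusted p = 5.90e-05).

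*Ahrr* (ENSMUSG00000021575, chr13:74211118-74292331), which competes with AhR for ARNT, had 10.4, 22.6, 11.1, 10.8 and 8.76 CPM at 1 µg/kg and 36.7, 30.1, 30.6, 34.4 and 32.2 CPM at 3 µg/kg. The groups did not overlap, although replicate 2 at 1 µg/kg stood apart above the other 4 livers of its dose. The log2 fold change was 1.35 ± 0.29 and the adjusted p 0.0271 by edgeR. *Ahrr* was already 85-fold above the vehicle at 1 µg/kg, and it had also been called at the step from 0.3 to 1 µg/kg, with a mean of 0.885 CPM at 0.3 µg/kg (adjusted p = 1.34e-08). The call held in 1 of the 10 fits that left out a liver, the one without replicate 2 at 1 µg/kg (adjusted p = 0.00338), and adjusted p reached 0.136 in the others. DESeq2 gave an adjusted p of 0.273.

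*Cyp1b1* (ENSMUSG00000024087, chr17:79701537-79715061), a P450 that oxidises polycyclic hydrocarbons and oestradiol, had 92.2, 87.3, 62.3, 213 and 91.5 CPM at 1 µg/kg and 384, 491, 514, 494 and 469 CPM at 3 µg/kg. The lowest liver of the higher dose stood well above the highest of the lower dose, which was replicate 4. The log2 fold change was 2.11 ± 0.48, or 4.31-fold, with an adjusted p of 0.0468 by edgeR. Like *Ahrr*, it was called at the step before, from 2.61 CPM at 0.3 µg/kg (adjusted p = 1.37e-07), and it was not called from 3 to 10 µg/kg (adjusted p = 0.612). Of the fits that left out a liver, the call held in the one without replicate 4 at 1 µg/kg (adjusted p = 0.0435), and without replicate 3 at 1 µg/kg the adjusted p was 0.274. DESeq2 gave 0.242 and the fit on the 10 livers alone 0.00445.

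The bases before the RefSeq start sites of these genes are shown because the AhR core stands in each of them. Each sequence is the 250 bases before the start on the strand of the gene (GRCm38.p6), with GCGTG or its reverse complement CACGC in capitals. Where a gene had several start sites, the one with most cores was taken. The window lies at chr13:74292332-74292581, minus strand, for *Ahrr*, at chr3:65528197-65528446, plus strand, for *Tiparp* and at chr17:79715062-79715311, minus strand, for *Cyp1b1*. *Pls1*, at chr9:95845280-95845529, minus strand, is a gene called at the step outside the AhR list, and *Cyp1a1*, at chr9:57697363-57697612, plus strand, and *Htatip2*, at chr7:49758856-49759105, plus strand, are AhR targets that were not called.
Ahrr: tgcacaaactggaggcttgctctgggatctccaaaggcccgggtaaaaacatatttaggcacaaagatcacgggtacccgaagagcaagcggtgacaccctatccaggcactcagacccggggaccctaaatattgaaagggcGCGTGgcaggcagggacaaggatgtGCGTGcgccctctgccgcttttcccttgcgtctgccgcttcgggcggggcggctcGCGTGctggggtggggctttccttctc
Tiparp: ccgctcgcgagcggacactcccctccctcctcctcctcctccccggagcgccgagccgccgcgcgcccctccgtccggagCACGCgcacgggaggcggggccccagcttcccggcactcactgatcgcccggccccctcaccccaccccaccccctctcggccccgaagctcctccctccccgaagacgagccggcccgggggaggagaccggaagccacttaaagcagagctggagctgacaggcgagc
Cyp1b1: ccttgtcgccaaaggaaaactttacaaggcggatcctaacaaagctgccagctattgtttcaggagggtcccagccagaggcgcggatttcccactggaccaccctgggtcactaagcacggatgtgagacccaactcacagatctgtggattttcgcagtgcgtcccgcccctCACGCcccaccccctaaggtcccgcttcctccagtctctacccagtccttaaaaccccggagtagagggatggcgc
Pls1: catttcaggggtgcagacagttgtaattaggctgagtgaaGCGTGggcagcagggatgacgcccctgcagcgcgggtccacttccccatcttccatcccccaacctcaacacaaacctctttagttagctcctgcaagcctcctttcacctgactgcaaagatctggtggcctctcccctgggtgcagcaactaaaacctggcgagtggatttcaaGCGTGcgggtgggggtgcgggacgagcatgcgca
Cyp1a1: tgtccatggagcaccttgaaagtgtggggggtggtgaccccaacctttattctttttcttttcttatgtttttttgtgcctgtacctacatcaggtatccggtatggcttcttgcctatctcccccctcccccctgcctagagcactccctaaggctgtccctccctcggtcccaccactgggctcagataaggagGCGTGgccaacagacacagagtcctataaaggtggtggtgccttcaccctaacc
Htatip2: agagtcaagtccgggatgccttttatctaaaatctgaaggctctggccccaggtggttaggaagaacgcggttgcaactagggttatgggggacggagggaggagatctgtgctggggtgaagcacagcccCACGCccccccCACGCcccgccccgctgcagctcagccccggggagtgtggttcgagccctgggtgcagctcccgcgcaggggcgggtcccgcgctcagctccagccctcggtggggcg

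The *Ahrr* window held 3 cores, which began 107, 82 and 27 bases before the start, and the *Pls1* window 2, at 210 and 34 bases. *Tiparp* had 1 core at 170 bases, *Cyp1b1* 1 at 76 bases, *Cyp1a1* 1 at 54 bases and *Htatip2* 2 at 119 and 108 bases. In windows of 300 bases, 250 before to 50 after the start, searched on both strands for GCGTG, 15 of the 19 genes called higher that had a RefSeq promoter in the table held the core (78.9%), against 6231 of 11932 genes tested (52.2%). The share was 1 of 3 among the genes called lower, 19 of 41 (46.3%) among the genes on a plateau defined below, and 336 of 791 (42.5%) among all genes that were higher at 10 and 30 µg/kg. The median GC content of the windows was 62% for the genes called higher and 60% for all genes tested. It was 58.7% for the plateau genes, 56.8% for all genes higher at 10 and 30 µg/kg and 65.7% for the genes called lower. The sets thus differed in base composition, and its part in the shares was not tested. A gene counted as holding the core if the window of any of its start sites did, so genes with more start sites had more chances. A core in a window is a string of letters and not a bound site, and these shares were not tested.

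**Figure D1:**
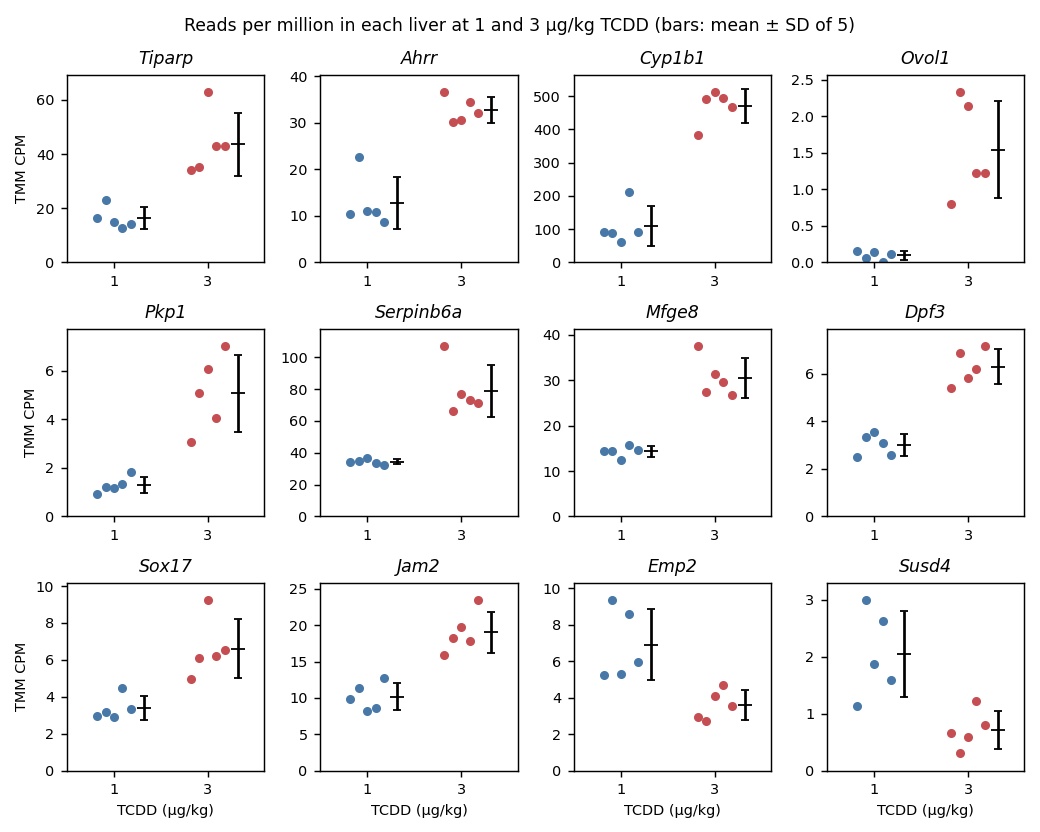
TMM-scaled CPM of 12 genes called at the step, in each of the 5 livers at 1 µg/kg (blue) and at 3 µg/kg (red), with the mean and SD of each group in black. In 11 of the panels no liver of one dose reaches the range of the other, and in *Susd4* the groups overlap.

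The AhR target list held 13 enzymes and feedback genes, all of which were tested. The 3 that rose stand beside 0.155% of all genes called higher, and beside 25 of the 1114 genes higher at 10 and 30 µg/kg (defined below). A further 4 met the criteria of a plateau, which 49 of the 17464 genes tested and 38 of those 1114 did. A plateau gene changed at least 2-fold at 10 and 30 µg/kg together, was already called against the vehicle at 1 µg/kg in the same direction, was not called at the step, and had a 95% interval of the step within 1.5-fold either way. The median log2 fold change of the 13 genes was 0.21, against 0.006 over all genes tested. It was 0.33 over the 1114 genes higher at 10 and 30 µg/kg, to which 10 of the 13 belong. *Cyp1a2* (ENSMUSG00000032310, chr9:57676937-57683703), the constitutive hepatic P450 of this family, had 11649.5, 10041, 9889, 12795 and 11586 CPM at 1 µg/kg and 12371, 13527, 12415, 12841 and 9905 CPM at 3 µg/kg. The ranges overlapped, and replicate 5 at 3 µg/kg stood apart below the other 4 livers of its dose. The log2 fold change was 0.13 ± 0.13 with a 95% interval of -0.14 to 0.39, although *Cyp1a2* had been 10.1-fold above the vehicle at 1 µg/kg. *Htatip2*, which encodes an NADPH-dependent reductase, had 153 to 199 CPM and 158 to 213 CPM (log2 fold change 0.14, interval -0.12 to 0.40). *Nqo1*, a quinone reductase under AhR and Nrf2 control, had 29.2 to 37.2 and 30.6 to 47.5 CPM (log2 fold change 0.18, interval -0.18 to 0.54). *Ugt1a6a*, a glucuronosyltransferase, had 132 to 164 and 146 to 184 CPM (interval -0.05 to 0.38), and its exons are shared with other *Ugt1a* genes, so that its reads cannot be assigned with certainty. A plateau bounds this step alone, and these 4 genes had higher means at 30 than at 3 µg/kg. *Cyp1a2* went from 12212 to 17362 CPM, *Htatip2* from 192 to 231, *Nqo1* from 37.9 to 68.5 and *Ugt1a6a* from 165 to 240.5.

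*Cyp1a1* (ENSMUSG00000032315, chr9:57687928-57703824), the classical AhR target, could not be placed in either class. It had 4585, 4774, 4001, 5139.8 and 4464 CPM at 1 µg/kg and 5641, 6185, 6436, 5751 and 5242 CPM at 3 µg/kg, and every liver at 3 µg/kg was the higher. The exact permutation p was 0.007937, yet the fit over 45 livers gave a log2 fold change of 0.35 ± 0.56, or 1.27-fold, with an interval of -0.79 to 1.48 and an adjusted p of 0.925. The vehicle livers, whose spread enters the fit over 45, had 7.5 ± 6.32 CPM. The livers at 1 and 3 µg/kg had 4593 ± 418 and 5851 ± 469 CPM (SD, n = 5). The part of the vehicle spread in the wide interval was not tested. Fitted on the 10 livers alone, the log2 fold change was 0.34 ± 0.09, and the adjusted p by edgeR was 0.306. *Cyp1a1* went from 7.5 CPM in the vehicle to 3415 CPM at 0.3 µg/kg and 7627 CPM at 30 µg/kg, and the step made up 3.5% of its log2 change at 10 and 30 µg/kg, against 44.5% for *Tiparp*, 22% for *Cyp1b1* and 15.4% for *Ahrr*.

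The other members of the list were not called. *Xdh*, which encodes xanthine dehydrogenase, had 315 to 372 and 354 to 431 CPM (log2 fold change 0.19, interval -0.02 to 0.40), and its change of 1.95-fold at 10 and 30 µg/kg was just short of the 2-fold required for a plateau. *Lfng*, a glycosyltransferase that modifies Notch, had an interval of -0.36 to 0.78 and *Ugt1a6b* one of -0.42 to 0.25, and neither reached 2-fold at 10 and 30 µg/kg. *Aldh3a1*, an aldehyde dehydrogenase, had a mean of 1.4 reads per liver, and its difference was not detectable at this depth. None of the 6 genes of the receptor complex was called, and *Ahr* itself had 61 to 96.9 and 65 to 117 CPM (log2 fold change 0.32, interval -0.10 to 0.73).

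**Figure D2:**
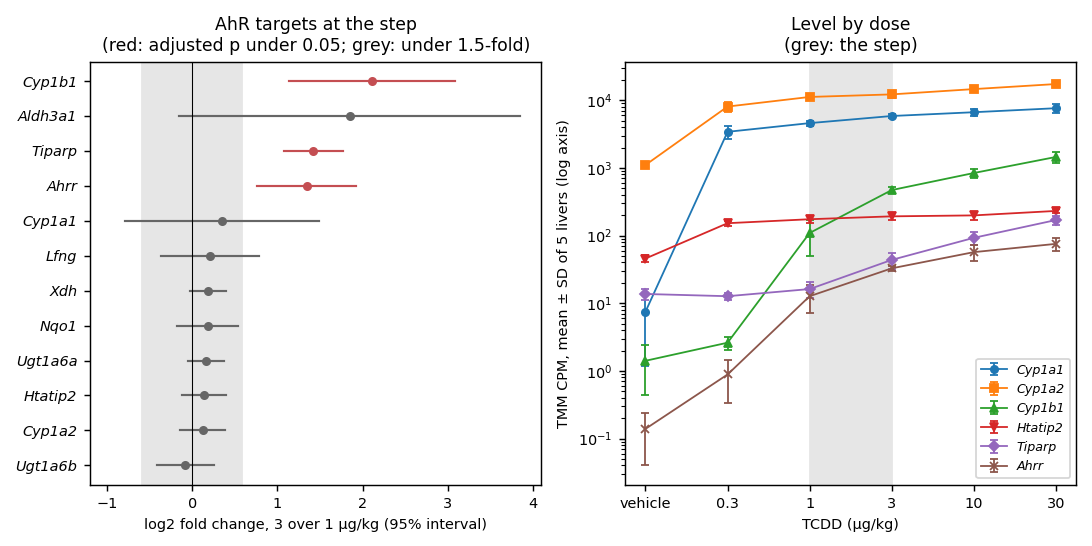
Left, log2 fold change from 1 to 3 µg/kg with its 95% interval for 12 genes of the AhR target list, red where the adjusted p was under 0.05, with the grey band marking less than 1.5-fold. Right, mean ± SD of TMM CPM (5 livers, log axis) of 6 of these genes by dose, where the estimates of *Cyp1a1*, *Cyp1a2* and *Htatip2* change by less than 1.5-fold across the shaded step and *Cyp1b1*, *Ahrr* and *Tiparp* rise across it.

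Among the called genes, the largest fold change and the smallest p belonged to *Ovol1* (ENSMUSG00000024922, chr19:5549136-5560646), a zinc finger transcription factor of epithelial differentiation. It had 0.152, 0.0561, 0.145, 0 and 0.114 CPM at 1 µg/kg and 0.804, 2.34, 2.14, 1.22 and 1.22 CPM at 3 µg/kg, which is 8 reads in all 5 livers of the lower dose and 242 reads in those of the higher dose. The groups were far apart. The ratio of the pooled reads, each relative to the total of its group, was 21.2, with an exact 95% interval of 10.6 to 49.8 that covers counting error only, and the adjusted p by edgeR was 8.50e-08. The mean was 0.0101 CPM in the vehicle, 5.87 CPM at 10 µg/kg (adjusted p = 9.94e-06 from 3 to 10 µg/kg by edgeR) and 10.9 CPM at 30 µg/kg. Its exons overlap those of other annotated genes over 22% of their length.

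The genes described next were called outside the AhR list and in no list, and are taken in turn by what they are known for. *Pkp1* (ENSMUSG00000026413, chr1:135871395-135919207), the desmosome protein plakophilin 1, had 0.914, 1.21, 1.16, 1.35 and 1.82 CPM at 1 µg/kg and 3.07, 5.11, 6.1, 4.06 and 7.04 CPM at 3 µg/kg. All livers of the higher dose were above those of the lower dose, by 3.96-fold (log2 fold change 1.98 ± 0.31, adjusted p = 3.89e-04 by edgeR). *Pls1*, the actin-bundling plastin 1, had 4.75 to 9.61 and 14 to 19.3 CPM (2.34-fold, adjusted p = 0.0159), and without a liver its call held in 6 of the 10 fits, with an adjusted p of up to 0.0979. *Tuba8*, an alpha tubulin, had 10.8 to 16.8 and 20.6 to 29.6 CPM (1.97-fold, adjusted p = 0.0468, called in 1 of the 10 fits). *Arhgap10*, a activating protein for small GTPases, had 2.33 to 3.66 and 3.54 to 10.9 CPM, which overlap (adjusted p = 0.0428, called in 1 of the 10 fits).

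*Serpinb6a* (ENSMUSG00000060147, chr13:33917918-34002794), an intracellular inhibitor of serine proteases, had 34.2, 34.5, 36.6, 33.6 and 32.3 CPM at 1 µg/kg and 107, 66.5, 76.6, 73 and 71.2 CPM at 3 µg/kg. The livers at 1 µg/kg lay close together, and the lowest at 3 µg/kg was well above them (2.3-fold, log2 fold change 1.2 ± 0.18, adjusted p = 1.79e-04 by edgeR). It was called at each of the neighbouring steps too, with means of 14.7 CPM at 0.3 µg/kg and 156 CPM at 10 µg/kg. Its exons overlap other genes over 29.3% of their length, among them *Nqo2*, and neither the kit nor the counting is stated to use strand, so reads of these genes may not be separable there. *Mfge8* (ENSMUSG00000030605, chr7:79133768-79149060), a secreted protein that links dying cells to phagocytes, had 14.5, 14.3, 12.4, 15.7 and 14.7 CPM and 37.6, 27.3, 31.4, 29.6 and 26.7 CPM. It was 2.13-fold higher at 3 µg/kg with no overlap (adjusted p = 3.71e-04). *Dpf3* (ENSMUSG00000021221, chr12:83213745-83487716), a subunit of the BAF chromatin remodelling complex, had 2.51, 3.34, 3.55, 3.08 and 2.56 CPM and 5.41, 6.87, 5.82, 6.19 and 7.17 CPM, and it was 2.09-fold higher with no overlap (adjusted p = 3.89e-04).

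*Slc18a2*, the vesicular monoamine transporter, had 0.507 to 1.22 CPM at 1 and 1.61 to 4.73 CPM at 3 µg/kg (3.88-fold, adjusted p = 0.00902 by edgeR). *Ap5b1*, an adaptor protein of endosomes, *Upp1*, the uridine phosphorylase, and *Msrb3*, a methionine sulfoxide reductase, were 2.03-, 2.04- and 1.64-fold higher with no overlap between groups (adjusted p = 0.00911, 0.0357 and 0.0126). *Selenok*, an ER selenoprotein, had 75.7 to 85 and 116 to 137 CPM (1.54-fold, adjusted p = 0.0417), but it was called in 0 of the 10 fits that left out a liver (adjusted p up to 0.135). The nucleoporin *Nup155*, the apoptosis inhibitor *Triap1* and the ER protein *Arl6ip5* had the smallest changes among the called genes, 1.43-, 1.39- and 1.22-fold, and were called in 2, 1 and 1 of the 10 fits without a liver. *Adam23*, a membrane protein of the disintegrin family, was 1.68-fold higher (adjusted p = 0.0262, called in 4 of the 10 fits). *Adam23*, *Arl6ip5* and *mt-Ta* were the 3 called genes that did not meet the criteria of a response at 10 and 30 µg/kg.

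*Insl6*, a peptide of the insulin and relaxin family, had 3.62 to 4.88 and 6.87 to 10.3 CPM (2.13-fold, adjusted p = 0.00911 by edgeR) and was already 20.5-fold above the vehicle at 1 µg/kg. *Pnliprp1*, a pancreatic lipase-related protein, had 0.0762, 0.14, 0.145, 0.193 and 0.569 CPM at 1 µg/kg and 1.75, 1.28, 1.47, 0.387 and 1.96 CPM at 3 µg/kg. Replicate 4 at 3 µg/kg lay within the range of the lower dose, and pooled reads rose from 21 to 195, a ratio of 6.52 with a counting interval of 4.15 to 10.8 (adjusted p = 0.0222 by edgeR, called in 4 of the 10 fits). *Prr15* was 2.43-fold higher (adjusted p = 0.0457) and was called in 0 of the 10 fits that left out a liver.

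*Sox17*, *Jam2* and *Ackr3*, which endothelial cells are known to express, were also called higher. *Sox17* (ENSMUSG00000025902, chr1:4490931-4497354), a transcription factor of arterial endothelium and endoderm, had 2.97, 3.17, 2.9, 4.49 and 3.36 CPM at 1 µg/kg and 4.97, 6.09, 9.25, 6.19 and 6.53 CPM at 3 µg/kg, with no overlap. It was 1.96-fold higher (log2 fold change 0.97 ± 0.17, adjusted p = 0.00145 by edgeR, 0.0703 in the 10 livers alone). *Jam2*, a junctional adhesion molecule of endothelium, had 9.82, 11.4, 8.26, 8.6 and 12.7 and 15.9, 18.2, 19.7, 17.8 and 23.5 CPM (1.86-fold, adjusted p = 0.0243, called in 4 of the 10 fits). *Ackr3*, an atypical receptor for the chemokine CXCL12, had 1.14, 1.54, 1.16, 1.03 and 1.19 and 3.73, 3.35, 3.01, 2.45 and 2.51 CPM (2.43-fold, adjusted p = 0.0126, called in 7 of the 10 fits). *Sox17* and *Jam2* were not called against the vehicle at 1 µg/kg (1.15- and 0.997-fold), and the step made up 66.3 and 67.3% of their log2 change at 10 and 30 µg/kg.

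The list of 12 endothelial markers, which holds none of these genes, had no called member. All 12 estimates were above 0, with a median log2 fold change of 0.31 against 0.006 over all genes. In 4 of the 12, *Kdr*, *Tie1*, *Vwf* and *Tek*, which were picked out after their values were seen, every liver at 3 µg/kg was above every liver at 1 µg/kg (1.07% of all genes). *Kdr*, a receptor for the growth factor VEGF, had 40.8, 39, 36.2, 41.3 and 47.1 CPM at 1 µg/kg and 58.2, 49.2, 58.5, 53 and 54.3 CPM at 3 µg/kg, with an adjusted p of 0.36 by edgeR. The summed level of the list, in CPM, was 223 to 275 at 1 µg/kg and 257 to 336 at 3 µg/kg, so the sums overlapped. In the vehicle livers the sums ran from 227.5 to 298.9 CPM, which overlaps the ranges of both doses. In bulk RNA, more cells of a type and more RNA per cell cannot be told apart. The part of endothelial content in the values of *Sox17*, *Jam2* and *Ackr3* was not tested.

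Turning to the 4 genes called lower, *Emp2* (ENSMUSG00000022505, chr16:10281749-10313968), an epithelial membrane protein, had 5.25, 9.37, 5.29, 8.6 and 5.97 CPM at 1 µg/kg and 2.92, 2.71, 4.1, 4.7 and 3.54 CPM at 3 µg/kg. All livers of the higher dose were below those of the lower dose, by 1.95-fold (log2 fold change -0.96 ± 0.20, adjusted p = 0.0222 by edgeR, called in 5 of the 10 fits). *1700001C19Rik* had 6.78, 7.35, 10.4, 9.31 and 7.39 and 5.33, 5.36, 4.17, 4.12 and 3.86 CPM, 1.8-fold lower with no overlap (adjusted p = 0.0126, called in 6 of the 10 fits). *Susd4*, a membrane protein with sushi domains that restrains complement, had 1.14, 3, 1.88, 2.63 and 1.59 and 0.658, 0.311, 0.596, 1.22 and 0.804 CPM, and 1 liver at 3 µg/kg lay within the range of 1 µg/kg (3.1-fold lower, adjusted p = 0.00908, exact permutation p = 0.01587). The last was *mt-Ta*, a mitochondrial transfer RNA, with 28 reads in the livers at 1 µg/kg and 3 at 3 µg/kg, a ratio of 13.3 with a counting interval of 4.11 to 68.3 (adjusted p = 0.0357). Its mean in the vehicle livers was 0.143 CPM, between the means of the 2 doses (0.319 and 0.0258 CPM). It was called in 3 of the 10 fits without a liver.

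**Figure D3:**
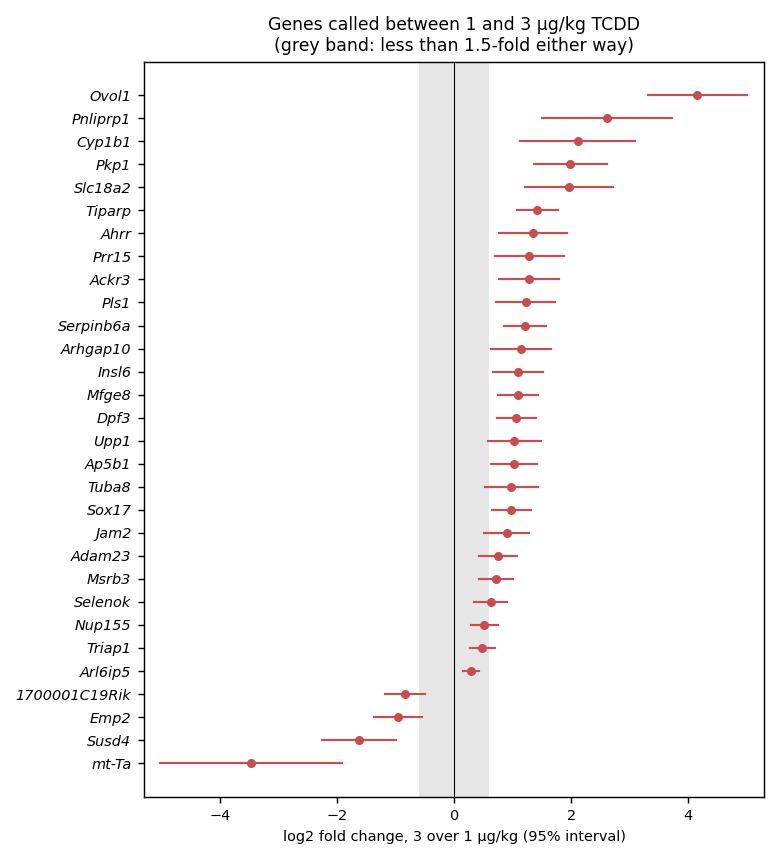
Log2 fold change from 1 to 3 µg/kg with 95% intervals for 30 of the called genes, ordered by size, with a grey band for less than 1.5-fold either way. The estimates range from -3.47 for *mt-Ta* to 4.15 for *Ovol1*, and the 4 genes called lower are below 0.

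To ask where the step lies within the whole response, genes were first chosen by a contrast between other dose groups. A total of 1114 genes (6.38%) were higher and 497 (2.85%) lower at 10 and 30 µg/kg together than in the vehicle, with an adjusted p under 0.05 and a change of at least 2-fold. No liver of 1 or 3 µg/kg entered that contrast, although these livers contributed to the spread that the fit shares over all groups. Among the genes higher at 10 and 30 µg/kg, the step estimate was above 0 in 81.8%, with a median log2 fold change of 0.33, or 1.26-fold. Among those lower, it was below 0 in 85.3%, with a median of -0.37, or 1.295-fold lower. Over all genes tested the estimate was above 0 in 51.1%. The median step made up 20.1% of the log2 change at 10 and 30 µg/kg in the genes that were higher and 24.6% in those that were lower. With the vehicle as the common base, which these shares have in common with the choice of genes, the higher genes had covered a median of 49.5% of the change at 1 µg/kg and 69.4% at 3 µg/kg, and the lower genes 33.4% and 58.8%. Every liver at 3 µg/kg lay above every liver at 1 µg/kg in 69 of the higher genes (6.19%, against 1.07% of all genes), and below in 28 of the lower genes (5.63%, against 0.647%).

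**Figure D4:**
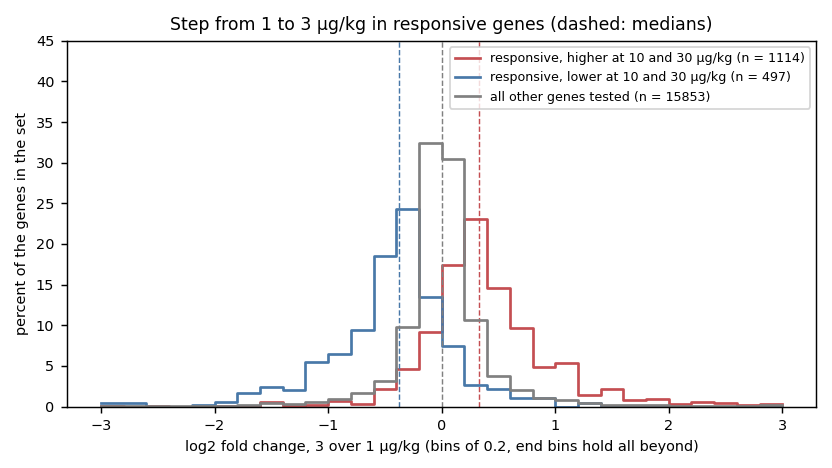
Distribution of the log2 fold change from 1 to 3 µg/kg, in percent of each set, for the 1114 genes higher and the 497 genes lower at 10 and 30 µg/kg and for all other genes tested, with medians as dashed lines. The higher genes are shifted above 0 (median 0.33) and the lower genes below it (median -0.37).

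These responsive genes fell into 4 classes. At the step 28 moved in the direction of their response, 25 upward and 3 downward, and none was called against it. A plateau was met by 49 genes, 38 of those higher and 11 of those lower. Another 32 genes (15 and 17) were classed as not yet moved. Their step interval was within 1.5-fold, and neither dose was called against the vehicle. This class set no bound on the difference from the vehicle. Its median log2 fold change from the vehicle at 1 µg/kg was 0.28 in the higher genes and -0.41 in the lower. The median responses of these genes at the high doses were 1.17 and -1.11, so the missing call does not show that they were unchanged. The remaining 1036 higher and 466 lower genes were undetermined, since the step was not called and they met neither set of criteria. The undetermined genes had few reads, with a median of 18.3 per liver for those higher, against 1324 for the plateau genes that were higher. Of the 25 genes moving upward, 14 were called against the vehicle at 1 µg/kg and 25 at 3 µg/kg, and 11 were called again from 3 to 10 µg/kg.

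On the plateau, the 10 genes with the largest changes at the high doses included *Cyp1a2* and *Htatip2*. The class says nothing of later steps. From 3 to 10 µg/kg the median log2 fold change was 0.24 in the 38 higher plateau genes, beside 0.11 at the step. It was -0.23 in the 11 lower ones, beside -0.15, and 1 and 2 genes of these sets were called there. The class rule kept the step small in these genes and put no bound on the next step. The medians of the steps therefore cannot be set against each other. *Slc46a3*, a lysosomal transporter, had 343, 255, 305, 345 and 327 CPM at 1 µg/kg and 339, 314, 333, 302 and 289 CPM at 3 µg/kg. The estimate of the step on the log2 scale was 0.00 (interval -0.36 to 0.36). It was 4.61-fold above the vehicle at 1 µg/kg, and its means at 0.3, 10 and 30 µg/kg were 299, 291 and 299 CPM. *Tert*, the telomerase subunit, had 24.7 to 27.1 and 18.2 to 32.9 CPM (interval -0.35 to 0.37), against 10.5 CPM in the vehicle. *Notch1*, a receptor of cell fate decisions, had 23.1 to 70.8 and 27.4 to 52.8 CPM (interval -0.44 to 0.44), and when replicate 2 at 1 µg/kg was left out the estimate became 0.39. *Pkm*, the pyruvate kinase of most tissues other than normal liver, had 11 to 17.9 and 14.8 to 21.9 CPM (interval -0.27 to 0.58) and was 3.05-fold above the vehicle at 1 µg/kg. *Tmem86b*, an enzyme of lysoplasmalogen breakdown, and *Itih5*, an inhibitor of the inter-alpha-trypsin family, had intervals of -0.05 to 0.48 and -0.31 to 0.49. The transcription factor *Tcf4* had the largest step estimate of the plateau genes (0.36, interval 0.15 to 0.56, unadjusted p = 0.00137 in edgeR's test, which did not pass the adjustment), since a plateau bounds the change at 1.5-fold and does not require none.

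Among the 11 plateau genes that were lower at the high doses, *S1pr5*, a receptor for sphingosine 1-phosphate, was at 3.08 ± 0.672 CPM at 1 and 3.13 ± 0.794 CPM at 3 µg/kg (SD, n = 5), below the vehicle mean of 6.43 CPM. It fell again from 3 to 10 µg/kg to 1.2 CPM (adjusted p = 4.83e-04 by edgeR).

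Of the 32 genes classed as not yet moved, 6 were called from 3 to 10 µg/kg, 4 higher and 2 lower. *Arhgef16*, an exchange factor for small GTPases, had 3.05, 3.48, 5.22, 4.24 and 3.93 CPM at 1 µg/kg and 4.9, 4.41, 3.75, 4.38 and 3.99 CPM at 3 µg/kg, beside 4.79 CPM in the vehicle. It rose to 11.8 CPM at 10 µg/kg (adjusted p = 1.42e-05 by edgeR) and 20.4 CPM at 30 µg/kg. *Kdf1*, a factor of keratinocyte differentiation, had 3.19 to 5.07 and 3.86 to 5.47 CPM and 8.58 CPM at 10 µg/kg (adjusted p = 2.88e-04 from 3 to 10 µg/kg), and *Hsbp1l1* likewise rose from 1.94 to 4.32 CPM (adjusted p = 0.00737). Without replicate 2 at 1 µg/kg, the step of *Hsbp1l1* was 0.36 on the log2 scale in place of 0.00. *Hilpda*, a lipid droplet protein that inhibits lipolysis, had 1.09 to 1.91 and 1.42 to 1.74 CPM and a mean of 3.86 CPM at 30 µg/kg. *Car1*, a carbonic anhydrase, *Serpina3m*, a serpin, and *Tmem37*, a membrane protein, had steps within -0.51 to 0.57, -0.53 to 0.36 and -0.35 to 0.38 and lower means at 30 than at 3 µg/kg. The zinc finger transcription factor *Mecom* and *Pdilt*, of the protein disulfide isomerase family, had intervals of -0.53 to 0.51 and -0.43 to 0.44. In this class *Nxnl1* and *Shox2* had no read in the 10 livers, and the interval of *Gm12602*, which had few, was likewise too narrow, so these 3 belong to it in name only.

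The step was set beside its neighbours. From 0.3 to 1 µg/kg 20 genes (0.115%) were called and from 3 to 10 µg/kg 137 (0.784%), each comparison sharing a group of livers with the step. No gene (0%) was called for a difference between the step and the one before, or between the step and the one after (0%), by edgeR, with 710 and 732 genes at an unadjusted p under 0.05. DESeq2 called 0 and 1 genes (644 and 683 at an unadjusted p under 0.05), and limma on variance-stabilized counts 0 and 4 (761 and 639). The gene by DESeq2 was *St6galnac2*, a sialyltransferase, and those by limma were *St6galnac2*, *Cnksr1*, *Col9a2* and *Marveld3*, all named after their values were seen. Among the 27 genes called higher at the step, 6 were also called from 0.3 to 1 µg/kg and 11 from 3 to 10 µg/kg. A difference in size between this step and either neighbour was therefore not shown by edgeR for any gene.

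Metabolic gene lists gave no called member at the step. With 0.178% of all genes called, lists of this size would mostly hold none, so a count of 0 says little about them, and the same applies to the marker lists further on. All 24 genes of cholesterol synthesis were tested, with a median log2 fold change of -0.11, and the sterol enzyme *Sc5d* had an interval of -0.72 to 0.12. In de novo lipogenesis (16 genes, median -0.13) the desaturase *Scd1* had 4528 to 6599 CPM at 1 and 4087 to 6797 CPM at 3 µg/kg. Of the 21 genes of fatty acid oxidation, 16 had estimates below 0, with a median of -0.09. Of the 23 subunits of oxidative phosphorylation, 22 had intervals within 1.5-fold, *Atp5b* among them (-0.20 to 0.13). *Cyp7a1*, the rate-limiting enzyme of bile acid synthesis, had 63 to 878 and 279.7 to 1127 CPM, and its interval of -0.86 to 1.90 was too wide to show a change or its absence. No member was called among the 19 CAR and PXR type P450 enzymes, where *Cyp3a11* and *Cyp2c29* had intervals of -0.09 to 0.59 and -0.07 to 0.57, or among the 19 Nrf2 genes, where *Gstm1* had -0.41 to 0.17. The same was true of the lists of glucose output, amino acid and urea metabolism, zonation, hepatocyte transporters, iron and heme, and the acute phase, in which *Pck1*, *Cps1*, *Cyp2e1*, *Slc10a1*, *Fth1* and *Hpx* had log2 fold changes of -0.10, -0.02, -0.13, -0.08, -0.04 and 0.12. No gene was called among the 20 sulfotransferases and glucuronosyltransferases (median -0.12), the 15 genes of fatty acid uptake and lipid storage (0.20), the 13 genes of bile acid synthesis (0.01), the 19 genes of the growth hormone axis (-0.13), the 19 clock genes (-0.05), the 13 genes of hepatocyte identity (-0.08) or the 6 housekeeping genes of the study's PCR (0.20).

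The list of 11 genes with the largest changes at 30 µg/kg was drawn from earlier results of these data, so its direction there is no independent evidence. *Cyp1b1* was its called member, 5 step estimates were above 0 and 6 below, and the median log2 fold change was -0.36. *Col9a2*, a chain of type IX collagen, had 0.0762, 0.281, 0.29, 0.128 and 0.171 CPM at 1 µg/kg and 1.02, 1.14, 1.26, 1.35 and 1.09 CPM at 3 µg/kg. The groups did not overlap (1.07% of all genes), and the log2 fold change was 2.48 ± 0.67 with an adjusted p by edgeR of 0.194 in the fit over 45 livers and 0.00445 in the 10 livers alone. It was called from 3 to 10 µg/kg, where its mean was 34.9 CPM (adjusted p = 1.76e-10). *Hmx1*, a homeobox transcription factor, had 0.0762, 0.0281, 0.145, 0 and 0 and 0.219, 0.29, 0.21, 0.516 and 0.45 CPM, again without overlap (adjusted p = 0.337), on few reads. *Nptx1*, a secreted pentraxin, had 33.7, 79.2, 33, 34.4 and 30 and 79.9, 90.1, 97, 75.9 and 77.5 CPM (log2 fold change 0.99 ± 0.33, adjusted p = 0.432), where replicate 2 at 1 µg/kg lay within the range of 3 µg/kg. *Fam83a* had 0.152 to 0.435 and 0.035 to 0.547 CPM (interval -1.58 to 0.87). *Cyp1a1* is described above.

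The other 5 members had lower means at 30 µg/kg than in the vehicle, and none was called at the step. *Hao1*, the glycolate oxidase of liver peroxisomes, had 202, 218, 174, 152 and 147 CPM at 1 µg/kg and 82, 89.4, 89.1, 98.3 and 121 CPM at 3 µg/kg. Every liver at the higher dose was lower, and the adjusted p by edgeR was 0.472 in the fit over 45 livers and 0.0142 in the 10 livers alone. *Sult3a1*, a sulfotransferase, had 147, 139, 194, 101 and 118 and 73.4, 48.7, 58.3, 64.6 and 81.1 CPM, again with no overlap (adjusted p = 0.573 and 0.0178). *Slc13a2*, a citrate transporter, had 0.609, 0.954, 0.652, 1.03 and 0.796 and 0.219, 0.476, 0.315, 0.129 and 0.289 CPM with an adjusted p of 0.584. *Sult3a2*, a second sulfotransferase, had 2.67, 1.49, 4.06, 1.03 and 1.82 and 0.585, 0.435, 0.421, 0.644 and 0.836 CPM (adjusted p = 0.296). *Slco1a1*, an uptake transporter for organic anions, had 9.67, 233, 91.8, 28.8 and 8.13 and 11.7, 5.26, 6.55, 19.5 and 65 CPM, which overlap widely (adjusted p = 0.638). In *Hao1*, *Sult3a1*, *Slc13a2* and *Sult3a2* all livers at 3 µg/kg were below those at 1 µg/kg (0.647% of all genes), with an exact permutation p of 0.007937. Apart from *Cyp1b1* and *Cyp1a1*, the members of this list were named after their values were seen.

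*Mup3* belongs to the growth hormone list. It encodes a major urinary protein and had 673, 1562, 1419, 788 and 933 and 368, 403, 455, 574 and 647 CPM (log2 fold change -1.14 ± 0.29, adjusted p = 0.116, and 0.0267 by DESeq2), and its near-identical paralogs make its reads uncertain.

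Markers of immune cells were compared for the same livers. The 8 genes of MHC class II presentation had no called member. All 8 estimates were above 0, with a median log2 fold change of 0.68, but the summed level, in CPM, ran from 124 to 378 at 1 µg/kg and 189.6 to 798 at 3 µg/kg, and the highest value came from 1 liver, replicate 1 at 3 µg/kg. *Cd74*, the invariant chain, had 38, 50.4, 88.4, 111 and 58.3 CPM at 1 and 236, 103, 57, 56.6 and 105 CPM at 3 µg/kg. Without that liver its log2 fold change was 0.22 in place of 0.69, and that of *H2-Aa* 0.34 in place of 0.82. The 20 macrophage markers had a median of 0.21, none of them called, and sums from 352 to 772 at 1 µg/kg and 409 to 1156 at 3 µg/kg. *Clec4f*, which marks Kupffer cells, had 58.9 to 126 and 77.8 to 167 CPM. Lymphocyte and neutrophil markers were low throughout, with sums in CPM of 7.39 to 15.9 at 1 µg/kg and 9.42 to 25.4 at 3 µg/kg, and the chemokine, interferon, stellate cell, biliary, cell cycle, p53 and stress lists had no called member, with medians from -0.08 for the biliary list to 0.17 for the cell cycle list.

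Red blood cell genes were higher in sum at 3 µg/kg, without a call. Their 6 tested genes summed, in CPM, to 46.5 to 75 at 1 µg/kg and 75.6 to 101 at 3 µg/kg, separated by a narrow gap. *Hbb-bs*, an adult beta globin, had 27.2, 24.3, 39.7, 19.3 and 33.3 and 39.8, 45.1, 59.5, 45.9 and 45.3 CPM (log2 fold change 0.72 ± 0.30, adjusted p = 0.619 by edgeR), and its reads can be split with near-identical globin genes. The sums of the vehicle livers ran from 68.9 to 86 CPM, across the gap between the doses. Pancreas, fat, gut and muscle genes summed, in CPM, to 6.55 to 8.64 at 1 µg/kg and 3.54 to 6.58 at 3 µg/kg and held no called gene.

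**Figure D5:**
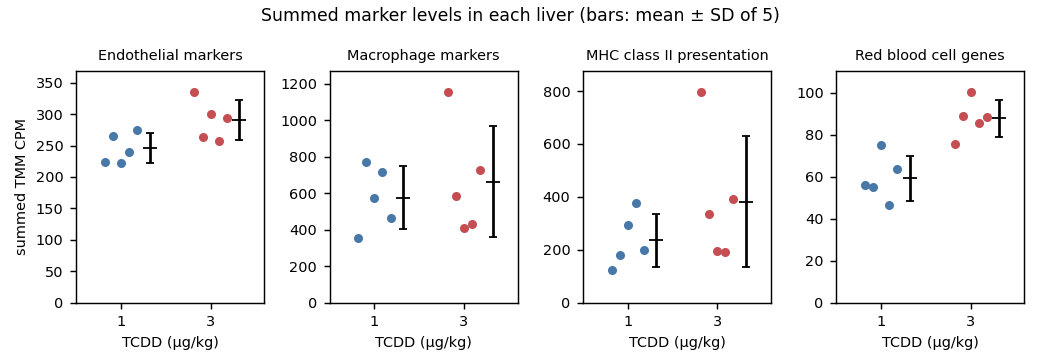
Summed TMM CPM of 4 marker lists in each liver at 1 µg/kg (blue) and 3 µg/kg (red), with the mean and SD of 5 livers in black. The groups overlap for the endothelial, macrophage and MHC class II lists, where replicate 1 at 3 µg/kg is the highest liver, and are separated by a narrow gap for the red blood cell genes.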

How the data were processed

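Hepatic RNA from 45 mice was sequenced as 50-base single reads from Illumina libraries, whose kit is not stated to mark strand. The authors deposited raw read counts for 39179 genes per liver, made with TopHat 1.4.1, SAMtools 0.1.19 and HTSeq 0.6.1 on GRCm38 after quality checks with FastQC 0.11.2 per the labels' processing notes and the study's methods. Reads that map to several places were left out, so genes with near-identical copies are undercounted. Symbols were found for 37693 gene IDs. The samples were grouped by the dose in the labels.

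Genes with more than 4 reads in any liver were tested with edgeR 4.0.16 (R 4.3.3) on all 9 groups, with TMM scaling, quasi-likelihood tests and Benjamini-Hochberg adjustment, and called at an adjusted p under 0.05. DESeq2 1.42.0, limma 3.58.1, other scalings, filters and bounds, thinned counts, the 10 livers alone and fits without each liver were alternatives. The rule for naming took up to 12 genes each way with no overlap, at least 10 reads on average and a symbol that is not a clone, Rik or Gm name, all AhR targets, members of each list, and 10 plateau and 10 not yet moved genes. The other called genes are named too, except that 1 of them, and a few list members, are not reported here. Members and lists were chosen with earlier results of these data known. The code was tested on simulated data. Python 3.11.15, numpy 2.4.6, scipy 1.17.1, pandas 2.3.3 and matplotlib 3.10.9 served for permutation tests, tables and plots.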

Additional observations from a re-analysis of the deposited data

Results flagged for a closer look

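Each group of 5 livers was checked for a liver that stood apart, by the gap to its nearest neighbour divided by the range of the group on the log2 CPM scale, with a critical value of 0.71. Over 59 genes (those called, the AhR targets and the plateau and not yet moved genes taken by the naming rule), 10 of 118 groups had such a liver. The critical value is meant to flag about 5% of independent groups of normal values. Here the genes share the same livers, and some were chosen by their intervals in these groups. The count therefore cannot be set against that share.

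At 1 µg/kg, replicate 2 had 22.6 CPM of *Ahrr*, where the other livers had 8.76 to 11.1 CPM. The same liver had 3.2 CPM of *Hsbp1l1*, against 1.37 to 1.67 CPM, and the only reads of *Aldh3a1* in its group (0.0561 CPM). Replicate 3 had 34.0 CPM of *Arl6ip5*, just below the others at 35.6 to 36.3 CPM. Replicate 4 had 193.6 CPM of *Tmem86b*, above 142.0 to 150.2 CPM. Replicate 5 had 0.228 CPM of *Gm12602*, a transcript on the not yet moved list, below 0.762 to 1.15 CPM.

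At 3 µg/kg, replicate 4 had 0.387 CPM of *Pnliprp1*, below 1.28 to 1.96 CPM. Replicate 3 had 137.3 CPM of *Selenok*, above 116.3 to 119.5 CPM. Replicate 5 had 9905.0 CPM of *Cyp1a2*, below 12370.5 to 13527.2 CPM. Replicate 2 had 5.32 CPM of *Pdilt*, below 7.07 to 7.45 CPM.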

How the results depend on the processing

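No paired analysis was made, since the mice were randomly assigned to the dose groups. The labels number no replicates, and the numbers used here follow the order of the samples within each dose. Without 1 liver, genes called higher ranged from 9 to 22 (27 with all livers), genes called lower from 1 to 4 (4), those also changed 2-fold from 8 to 16 higher (17) and 0 to 3 lower (2), responsive genes moving from 10 to 23 (28), on a plateau from 36 to 46 (49) and not yet moved from 23 to 48 (32). The lowest counts of higher and moving genes came without replicate 4 at 1 µg/kg, where 10 of the 31 called genes remained. DESeq2's test called 8 genes lower, 5 of them 2-fold, and lost *Ahrr* and *Cyp1b1*. With limma on variance-stabilized counts, 10 genes were 2-fold higher and 0 lower, and 50 were classed as not yet moved. The fit on the 10 livers alone called 2 genes lower, 1 of them 2-fold, and shared 16 of its 20 calls with the 31. Filtering by expression in the 9 groups, or by a mean of 10 reads, which was chosen after seeing the data, left 1 gene 2-fold lower. Plateau and not yet moved genes numbered 11 and 9 with bounds of 1.3-fold and 119 and 269 with bounds of 2-fold, so the size of these classes depends on the bound. A standard error from the information matrix, also chosen after seeing the data, gave 49 and 28. The other counts stayed within 1.5 times, no named gene that was called in either fit changed direction, and *Mup3* (DESeq2), *Sult3a1*, *Hao1* and *Col9a2* (10 livers alone) gained a call among the genes named. Scaling moved the median of all genes between 0.003 and 0.028. Depth limited the undetermined genes, of which 351 higher and 144 lower had under 10 reads per liver.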
